A study of Saccharomyces cerevisiae BY4741 with 6 samples.

Results

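The nuclear-encoded genes of oxidative phosphorylation are described here, in a strain of the budding yeast Saccharomyces cerevisiae that lacks PEX3 and in its wild type. They comprise 42 genes of the 5631 rows of the deposited count table. The members were taken by their systematic names, for their known function and not for any measured value, though results of these data were known. All 42 were present and passed the filter on low counts. They are 3 NADH dehydrogenase genes, 4 genes of succinate dehydrogenase (complex II), 9 of the cytochrome bc1 complex (complex III), 2 of cytochrome c, 9 of cytochrome c oxidase (complex IV) and 15 of ATP synthase.

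The deletion strain (pex3) carries kanMX4 in place of PEX3 (YDR329c), and the wild type (WT) is BY4741. Both strains are MATa and carry the alleles met15[delta]0, his3[delta]1, ura3[delta]0 and leu2[delta]0. There were 3 cultures of each, and each genotype was represented by 1 collection strain, so the replicates are cultures and not independent deletions. Cells were grown at 30 degrees Celsius in shake flasks, with a start on 0.5% glucose and then repeated dilution into mineral medium with 0.5% acetate, and were collected at an optical density of 0.5. Pex3 is needed to form peroxisomes, and the comparison asks whether its loss alters the transcriptome on acetate. Poly(A) RNA was sequenced, and the counts of a library summed to between 6782522 and 9410398. The PEX3 transcript was not analysed here, so the genotypes rest on the labels alone. The members took 2.47%, 2.49% and 2.42% of the counts in pex3 replicates 1, 2 and 3, against 2.17%, 2.39% and 2.45% in WT replicates 1, 2 and 3.

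On acetate, yeast cannot ferment and gains its ATP by respiration. Electrons from NADH and succinate pass through ubiquinone to complex III, then through cytochrome c to complex IV and oxygen, and the proton gradient built up on the way drives ATP synthase. S. cerevisiae has no proton-pumping complex I, and single-polypeptide dehydrogenases oxidise NADH instead. Most subunits are encoded in the nucleus and a few in mitochondrial DNA. Glucose represses many of the nuclear genes, and the CCAAT-binding Hap2/3/4/5 complex activates many of them on respiratory carbon sources.

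In the edgeR quasi-likelihood test over all 5628 tested rows, 0 of the 42 members passed an adjusted p of 0.05 in either direction, where 0.178% of all tested rows did. At an unadjusted p under 0.05 the count was also 0, where 9.08% of all tested rows passed, and the smallest unadjusted p of a member was 0.0692, for COX5B. DESeq2 called 0 members at an adjusted p under 0.05, where 1.03% of all tested rows were called. At an unadjusted DESeq2 p under 0.05 the count of members was also 0, where 467 of the 5628 tested rows passed. The fold changes of 32 members were above 0 and of 10 below 0, with a median of 0.05 on the log2 scale (pex3 over WT) and a range from -0.66 to 0.23. Over all tested rows 2894 of 5628 fold changes were above 0, and the median was 0.01. The median standard error (SE) of a member was 0.11. For 3 members, NDI1, NDE1 and ATP2, the lowest pex3 library exceeded the highest WT library, where 8.72% of all tested rows did so. For 1 member, COX5B, the highest pex3 library was under the lowest WT library, where 7.73% of all tested rows did so. In the remaining 38 members the strains overlapped, as they did in 4702 of the 5628 tested rows.

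The number of positive fold changes fell when WT replicate 1 was left out. WT replicate 1 held the lowest value of the 6 libraries for 32 of the 42 members and for 28% of all tested rows. Its share of the other rows depended on coding length. Under 300 bp it was lowest for 9 of 12 members and 67.4% of other rows. From 300 bp to under 600 bp it was lowest for 13 of 16 members and 61% of other rows. At 600 bp and over it was lowest for 10 of 14 members and 21.4% of other rows. With WT replicate 1 left out, 16 members had a fold change above 0 and 26 below 0. The members' median was then -0.03 on the log2 scale, against -0.002 for all tested rows. Leaving out WT replicate 3 instead moved the members' median upward, as described further on.

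**Figure D1:**
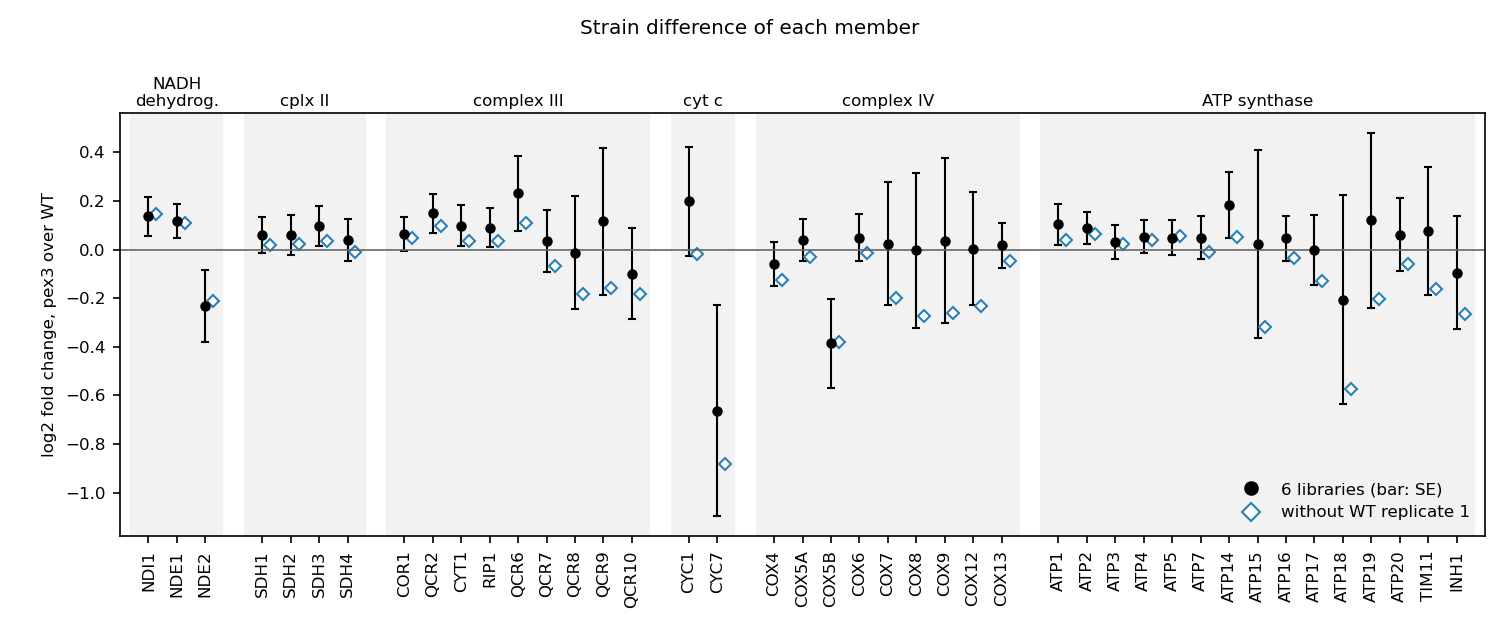
The log2 fold change of each member, pex3 over WT, is plotted by complex. Black points with bars give the value and SE from all 6 libraries, and open diamonds give the value without WT replicate 1. The bars are widest for CYC7, ATP18, ATP15 and ATP19, and most diamonds lie below their points.

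The 500 bases upstream of each start codon, read from the R64 genome, were searched on both strands for the letters of 3 motifs. CCAAT, the core to which the Hap complex is known to bind, was found upstream of 38 of the 42 members (90.5%) and of 62.4% of the 6000 annotated protein-coding genes. CCAATNA, a longer form that was examined after the first count had been seen and that lies within the first by construction, was found upstream of 36 members (85.7%) against 24.3% of those 6000 genes. All 15 ATP synthase genes and all 4 genes of complex II held it, as did 8 of 9 genes of complex IV and 6 of 9 of complex III. NDE2, QCR2, CYT1, QCR6, CYC1 and COX4 had no match to CCAATNA in this window. ATTGTT, the core bound by the hypoxic repressor Rox1, was found upstream of 54.8% of the members and 48.9% of the 6000 genes. It can overlap a CCAAT match. By group, ATTGTT was found for 2 of 3 NADH dehydrogenase genes, 1 of 4 of complex II and 4 of 9 of complex III. It was found for 7 of 9 genes of complex IV, COX5B among them, and 9 of 15 of ATP synthase. Of the 2 cytochrome c genes 0 had it, so CYC7 had no match in this window. These are matches of letters, and the window can reach into a neighbouring gene. They are shown here for 1 or 2 members of each group, including the isoform pair COX5A and COX5B, because the level of HAP4 is described further on. The capitals mark CCAATNA, and each sequence is written 5′ to 3′ on the strand that carries it. NDI1 is at chrXIII:30018-30044 (minus strand), SDH2 at chrXII:54069-54095 (minus), RIP1 at chrV:107003-107029 (plus), CYC7 at chrV:80414-80440 (minus), COX5A at chrXIV:531568-531594 (minus), COX5B at chrIX:155140-155166 (plus) and ATP2 at chrX:647216-647242 (plus).
NDI1: ttcattcggaCCAATCAtatgaaggca
SDH2: tcgcattggcCCAATTAgctccggtgt
RIP1: ccataacggaCCAATCAgcgttttgcg
CYC7: gaccttttgcCCAATGAccattccata
COX5A: aaacgtagggCCAATCAcaaacgagga
COX5B: aaacaatagaCCAATTAtttcaattta
ATP2: tatatagcggCCAATCAacggcgacct

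The 36 members with CCAATNA had a median log2 fold change of 0.05, and the 6 without it had one of 0.12, ranging from -0.23 to 0.23. Among the other protein-coding rows the medians were 0.01 for the 1311 with the letters and 0.01 for the 4151 without them. The median level was 572 CPM per kb for members with the letters and 562 CPM per kb for members without them.

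Levels are given as CPM, the count relative to the library total after TMM scaling, which says nothing of RNA per cell, and, to compare genes, as CPM per kilobase of coding sequence (CPM per kb). By the mean over 6 libraries, 39 of the 42 members lay above the median of 5515 protein-coding rows, 54.5 CPM per kb, and 30 lay above the ninth decile, 279 CPM per kb. The lowest members were CYC7, COX5B and ATP18. None of the members overlaps another annotated gene in the RefSeq annotation of R64. The closest relatives in coding sequence were CYC1 and CYC7, 79.2% identical over 94.9% of CYC1, and SDH1 and its paralog SDH9, 77% identical over 93.3% of SDH1.

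**Figure D2:**
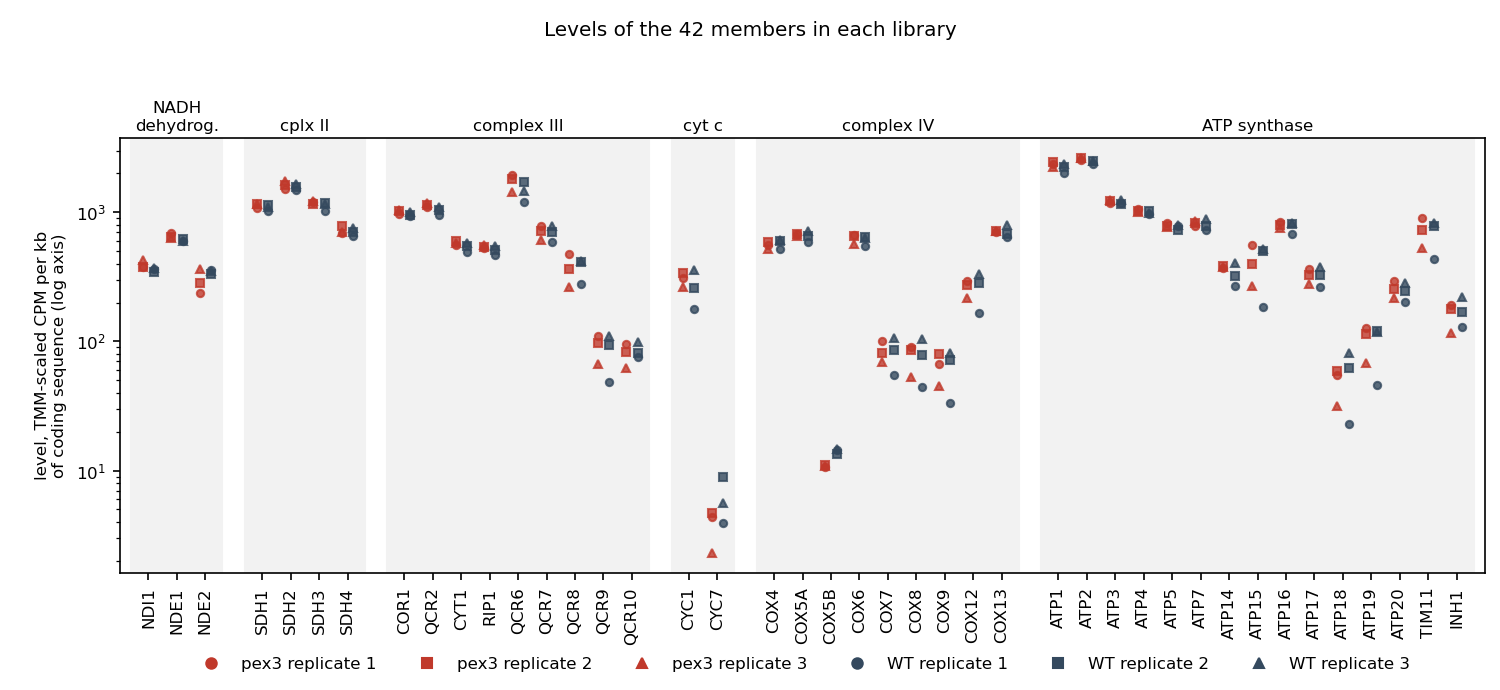
Levels of the members in each library, in TMM-scaled CPM per kb of coding sequence on a log axis, grouped by complex. Red symbols are the 3 pex3 libraries and dark symbols the 3 WT libraries, with the shape giving the replicate number. ATP1, ATP2, SDH2 and QCR6 stand at the top, COX5B and CYC7 at the bottom, and the spread between libraries is widest among the short subunits.

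The NADH dehydrogenases comprise NDI1, which oxidises NADH in the matrix, and NDE1 and NDE2, which oxidise cytosolic NADH at the outer face of the inner membrane. NDE1 (YMR145C) was the highest of them, with 688, 648 and 628 CPM per kb in pex3 replicates 1, 2 and 3, against 595, 616 and 597 CPM per kb in WT replicates 1, 2 and 3. Each deletion library lay above each wild-type library, by a margin that was small beside the spread within the deletion strain. The log2 fold change was 0.12 (SE 0.07, edgeR adjusted p 0.609). NDI1 (YML120C), described after its values were seen because its libraries did not overlap, measured 376, 376 and 428 CPM per kb in the pex3 cultures, against 361, 344 and 367 CPM per kb in the WT cultures. Its log2 fold change was 0.14 (SE 0.08, edgeR adjusted p 0.609).

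NDE2 (YDL085W) went the other way in value, with 236, 286 and 366 CPM per kb in the pex3 cultures, against 356, 334 and 351 CPM per kb in the WT cultures. The wild-type cultures lay close together, while pex3 replicate 1 was low and pex3 replicate 3 was the highest library of all. Its log2 fold change was -0.23 (SE 0.15, edgeR adjusted p 0.618), with -0.09 without pex3 replicate 1 and -0.41 without pex3 replicate 3. NDE2 contributed 25.5%, 30.6% and 36.8% of the summed NDE1 and NDE2 level in the pex3 cultures and 37.4%, 35.2% and 37% in the WT cultures. The summed level of the 3 dehydrogenases was 1344 ± 68.1 CPM per kb in pex3 and 1308 ± 11.8 CPM per kb in WT (SD, n = 3 each), with the smallest ratio of highest to lowest library among the 6 groups.

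Succinate dehydrogenase links the TCA cycle to the respiratory chain. SDH1 and SDH2 encode its flavoprotein and iron-sulfur subunits, and SDH3 and SDH4 its membrane anchors. SDH2 (YLL041C) was the highest of them, with 1517, 1618 and 1756 CPM per kb in pex3 replicates 1, 2 and 3, against 1483, 1556 and 1649 CPM per kb in WT replicates 1, 2 and 3. The strains overlapped, and the log2 fold change was 0.06 (SE 0.08, edgeR adjusted p 0.833). SDH3 (YKL141W), with the largest fold change of the group, measured 1201, 1152 and 1226 CPM per kb in the pex3 cultures, against 1014, 1179 and 1151 CPM per kb in the WT cultures. WT replicate 1 stood apart below the other 5 libraries, and the log2 fold change was 0.10 (SE 0.08, edgeR adjusted p 0.696) and 0.03 without that library. All 4 genes had fold changes above 0, from 0.04 to 0.10, and all 4 overlapped between strains. Without WT replicate 1, SDH1, SDH2 and SDH3 were at 0.02, 0.02 and 0.03 and SDH4 was at -0.01.

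Complex III passes electrons from ubiquinol to cytochrome c. Its catalytic subunits outside mitochondrial DNA are cytochrome c1 (CYT1) and the Rieske iron-sulfur protein (RIP1), COR1 and QCR2 encode the core proteins, and QCR6 to QCR10 encode small subunits. QCR6 (YFR033C), an acidic subunit, was both the highest of the 9 genes and the one with the largest fold change. It measured 1926, 1805 and 1423 CPM per kb in pex3 replicates 1, 2 and 3, against 1200, 1723 and 1467 CPM per kb in WT replicates 1, 2 and 3. WT replicate 1 was again the lowest, and the remaining wild-type values lay within the range of the deletion strain. Its log2 fold change was 0.23 (SE 0.16, edgeR adjusted p 0.641) and 0.11 without WT replicate 1. COR1 and QCR2 averaged 1009 and 1138 CPM per kb in pex3 against 964 and 1026 in WT, while CYT1 and RIP1 averaged 577 and 542 CPM per kb in pex3 against 539 and 509 in WT. QCR9 and QCR10, whose genes carry an intron, were the lowest, at 91.2 and 79.9 CPM per kb in pex3 against 83.9 and 85.5 in WT. Fold changes of the 9 genes ran from -0.10 to 0.23 with a median of 0.09, and all 9 overlapped between strains. The median was 0.04 without WT replicate 1 and 0.15 without WT replicate 3.

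Cytochrome c carries electrons between complexes III and IV and has an aerobic isoform, CYC1, and a hypoxic isoform, CYC7. CYC1 (YJR048W) measured 312, 337 and 265 CPM per kb in pex3 replicates 1, 2 and 3, against 178, 257 and 358 CPM per kb in WT replicates 1, 2 and 3. The wild type held both the lowest and the highest library. The log2 fold change was 0.20 (SE 0.22, edgeR adjusted p 0.787), and -0.02 without WT replicate 1. CYC7 (YEL039C) had 12, 15 and 6 counts in the pex3 libraries, against 10, 21 and 18 counts in the WT libraries. The strains overlapped at these low counts, and the log2 fold change was -0.66 with an SE of 0.43 (edgeR adjusted p 0.628). It was the largest of any member with all 6 libraries, but was -0.33 without WT replicate 2, where COX5B was at -0.42, and -0.43 without pex3 replicate 3. CYC7 made up 1.2% ± 0.293 of the summed cytochrome c level in pex3 and 2.35% ± 0.937 in WT (SD, n = 3 each).

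Complex IV reduces oxygen to water. Its catalytic core is encoded in mitochondrial DNA, and the nuclear genes encode the surrounding subunits. Among them COX5A and COX5B encode alternative forms of subunit 5, COX5A in aerobic and COX5B in hypoxic cells. COX13 (YGL191W) had the highest mean level, with 706, 720 and 711 CPM per kb in pex3 replicates 1, 2 and 3, against 638, 681 and 792 CPM per kb in WT replicates 1, 2 and 3. The deletion cultures lay within the range of the wild-type cultures, and the log2 fold change was 0.02 (SE 0.09, edgeR adjusted p 0.964), and it was -0.05 without WT replicate 1 and -0.01 without WT replicate 2. COX5A (YNL052W) measured 679, 675 and 651 CPM per kb in the pex3 cultures, against 588, 652 and 713 CPM per kb in the WT cultures, which span the deletion cultures on both sides. Its log2 fold change was 0.04 (SE 0.09, edgeR adjusted p 0.909), and -0.03 without WT replicate 1.

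COX5B (YIL111W) was the member with the smallest p, yet its counts were low, at 39, 47 and 38 in the pex3 libraries, against 49, 42 and 63 in the WT libraries. Scaled for depth these were 10.6, 11 and 10.9 CPM per kb in the pex3 cultures, against 14.3, 13.5 and 14.7 CPM per kb in the WT cultures. The strains did not overlap, and the values of each strain lay close together, though counts this low cannot show how alike the cultures were. The log2 fold change was -0.39 (SE 0.18, edgeR adjusted p 0.556), and -0.38 without WT replicate 1. COX5B made up 1.6% ± 0.0592 of the summed COX5A and COX5B level in pex3, against 2.14% ± 0.206 in WT (SD, n = 3 each). The other 6 genes of the complex overlapped between strains. Of these, COX4 averaged 555 CPM per kb in pex3 and 578 in WT, COX6 630 in pex3 and 609 in WT, and COX12 262 in pex3 and 261 in WT, with the short COX7, COX8 and COX9 between 62.3 and 84 CPM per kb in the strain means.

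ATP synthase has a catalytic sector, F1, with the subunits of ATP1, ATP2, ATP3, ATP15 and ATP16. A peripheral stalk holds those of ATP4, ATP5, ATP7 and ATP14 among others. There are also membrane subunits, such as those of ATP17 to ATP20 and TIM11, and the inhibitor INH1. ATP2 (YJR121W), the catalytic beta subunit, was the highest of all 42 members. It measured 2548, 2621 and 2641 CPM per kb in pex3 replicates 1, 2 and 3, against 2370, 2489 and 2487 CPM per kb in WT replicates 1, 2 and 3. All deletion cultures lay above all wild-type cultures, by a narrow margin, and the log2 fold change was 0.09 (SE 0.07, edgeR adjusted p 0.673). ATP1, the alpha subunit, averaged 2365 CPM per kb in pex3 and 2201 in WT, and ATP3, the gamma subunit, averaged 1217 CPM per kb in pex3 and 1191 in WT. The mean of ATP1 and ATP2 over ATP3 was 2.09, 2.07 and 1.97 in the pex3 cultures and 1.85, 2.06 and 1.95 in the WT cultures.

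ATP18 (YML081C-A), a small membrane subunit, had the largest fold change of the ATP synthase genes. It measured 55, 58.6 and 31.4 CPM per kb in pex3 replicates 1, 2 and 3, against 23, 62.6 and 81.3 CPM per kb in WT replicates 1, 2 and 3. The wild-type cultures again held the extremes, and the log2 fold change was -0.21 (SE 0.43, edgeR adjusted p 0.899). It was -0.57 without WT replicate 1, 0.20 without WT replicate 3 and 0.02 without pex3 replicate 3. Fold changes of the 15 genes ran from -0.21 to 0.18 with a median of 0.05, and 14 of the 15 overlapped between strains. The median was -0.03 without WT replicate 1 and 0.13 without WT replicate 3.

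Summed over each group, the level was 4683 ± 176 CPM per kb in pex3 and 4471 ± 256 in WT for complex II, 6227 ± 388 in pex3 and 5728 ± 600 in WT for complex III, and 308 ± 38 in pex3 and 271 ± 90.7 in WT for cytochrome c. It was 3063 ± 189 in pex3 and 3036 ± 391 in WT for complex IV, and 12030 ± 558 in pex3 and 11480 ± 1096 in WT for ATP synthase (SD, n = 3 each). These sums weight the abundant subunits most and are given without a test. In these sums the strains overlapped in all 6 groups. The median deviation of each library from the gene means, described with coding length further on, gave another picture for the NADH dehydrogenases, at 0.01, 0.01 and 0.19 in pex3 replicates 1, 2 and 3 and -0.05, -0.03 and -0.03 in WT replicates 1, 2 and 3, with no overlap between strains. The highest library exceeded the lowest 1.1-fold for the NADH dehydrogenases, 1.16-fold for complex II, 1.3-fold for complexes III and IV, 1.22-fold for ATP synthase and 2-fold for cytochrome c.

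**Figure D3:**
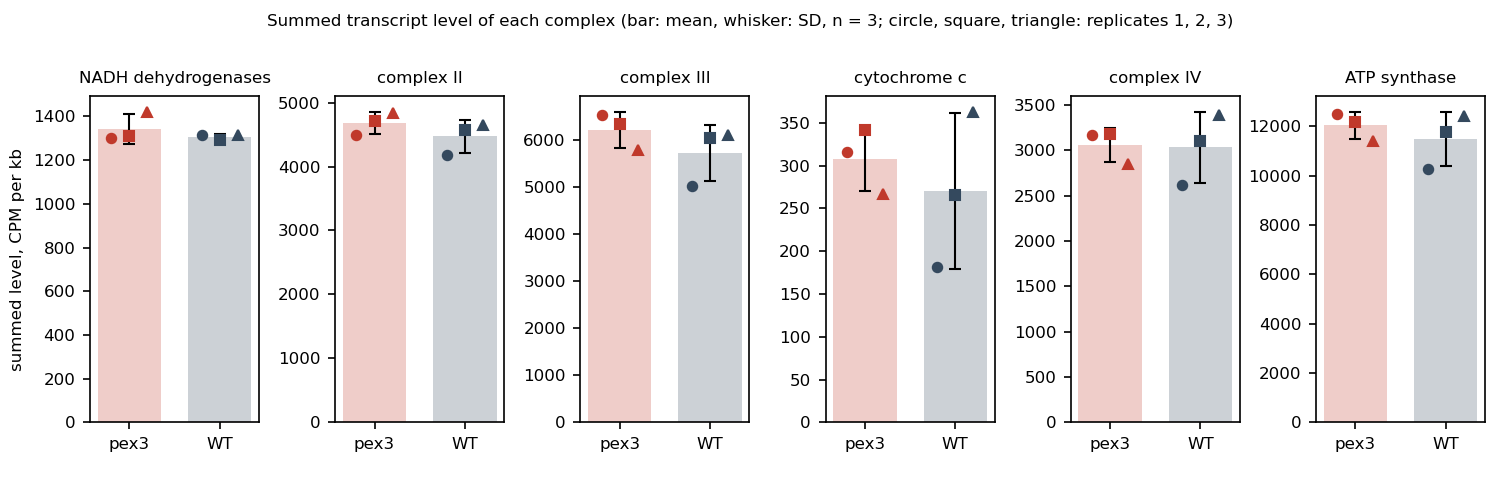
Summed level of each group in CPM per kb, with pex3 left of WT. Bars give the mean of 3 cultures, whiskers the SD, and circles, squares and triangles replicates 1, 2 and 3. The points of the strains overlap in every panel, and WT replicate 1 (dark circle) is the lowest point in all but the NADH dehydrogenase panel.

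The differences between cultures followed the length of the coding sequence. The members are short, with a median coding length of 452 bp against 1272 bp for all tested rows with an annotated length, and 12 of them are under 300 bp, a class limit chosen after the data were seen. For each gene the deviation of a library from the gene's mean over the 6 libraries was taken on the log2 scale. In the 12 shortest members its median was 0.31, 0.12 and -0.42 in pex3 replicates 1, 2 and 3, and -0.67, 0.18 and 0.38 in WT replicates 1, 2 and 3. The other 135 rows under 300 bp gave 0.26, 0.13 and -0.37 in the pex3 cultures and -0.55, 0.22 and 0.36 in the WT cultures. The low libraries were pex3 replicate 3 and WT replicate 1, in members and other short rows alike.

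The 14 members of 600 bp and over varied less, with medians of 0.00, 0.04 and 0.06 in pex3 replicates 1, 2 and 3 and of -0.08, -0.03 and 0.03 in WT replicates 1, 2 and 3. Here the medians of the other 4639 rows lay between -0.01 and 0.02 in every library. WT replicate 1 held the lowest value for 10 of these 14 members and for 21.4% of the other long rows. Across all tested rows with a length, the Spearman correlation of length with the deviation was -0.16, -0.09 and 0.16 in the pex3 cultures and 0.34, -0.13 and -0.39 in the WT cultures. This correlation is across genes of 1 library, which are not independent. In the fit corrected for length, 32 members had a fold change above 0, the median was 0.07 against 0.02 for all tested rows, and 0 members passed an adjusted p of 0.05 or an unadjusted p of 0.05. After that correction the median deviation of the 42 members was 0.02, 0.03 and 0.03 in pex3 replicates 1, 2 and 3 and -0.10, -0.04 and 0.01 in WT replicates 1, 2 and 3. The strains did not overlap on this measure, with the closest pair of libraries pex3 replicate 1 and WT replicate 3. By group, the strains likewise did not overlap for the NADH dehydrogenases, complex III and ATP synthase, and overlapped for complex II, cytochrome c and complex IV. These medians are given as a description, with no test, and how often other sets of genes separate in this way was not examined. In the summed levels above, the strains overlapped in every group.

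**Figure D4:**
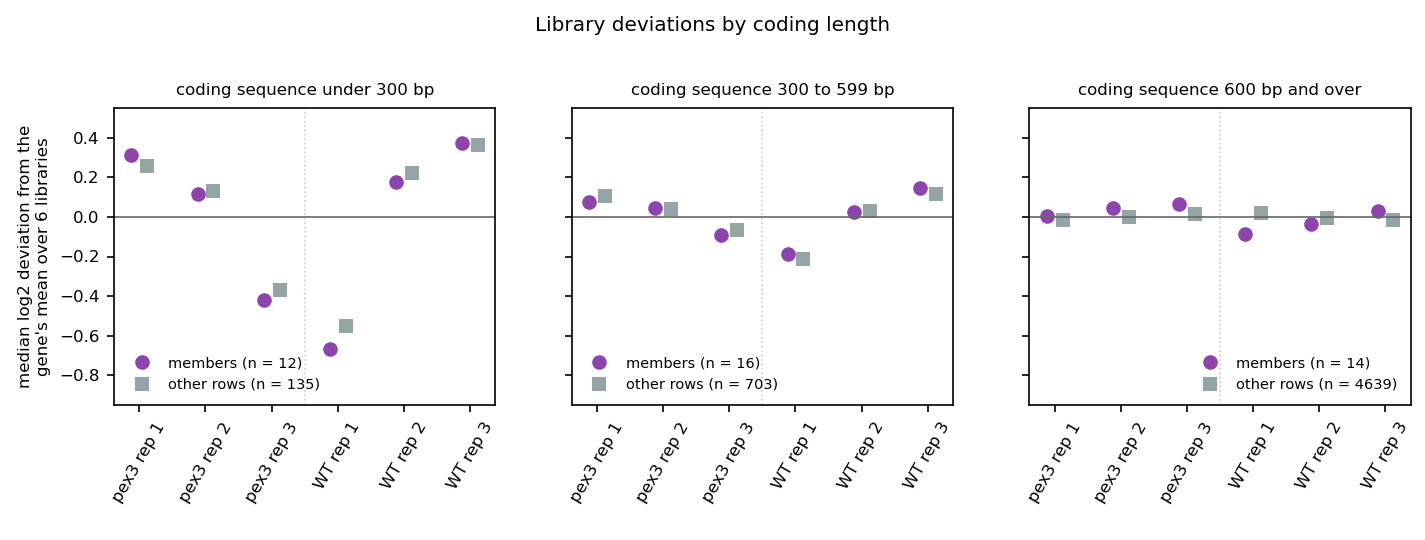
Median log2 deviation of each library from the gene means, for members (purple circles) and all other rows (grey squares) in 3 classes of coding length. pex3 libraries stand left of the dotted line and WT libraries right of it. The median of members under 300 bp lies at -0.67 in WT replicate 1 and -0.42 in pex3 replicate 3, close to that of other rows of that length. The medians of long members deviate by less than 0.1.

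Precision followed length as well. The median SE of the log2 fold change was 0.28 for members under 300 bp, 0.11 for those from 300 bp to under 600 bp and 0.08 for those of 600 bp and over. Without WT replicate 1, 0 of the 12 shortest members had a fold change above 0, where 7 did with all libraries. Of the other rows of that length, 12 of 135 were above 0 without that library and 68 of 135 with it. Of the 14 longest members 13 were above 0 in either case, where 2436 of the 4639 other long rows were so without WT replicate 1 and 2303 with it. The 5 non-member rows whose profile over the 6 libraries was most like the members' mean were RPL38, TSC3, RPS30A, LSM6 and PMP3, with Pearson r from 0.993 to 0.995 among 5311 rows searched. They encode a ribosomal protein, an activator of sphingolipid synthesis, a second ribosomal protein, an RNA-binding protein of the Lsm ring and a small membrane protein, and their coding sequences are between 168 and 261 bp long. Of the members themselves, 20 had an r above 0.8 with the mean of the remaining members, while NDE2, NDI1 and COX5B had a negative one.

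Other genes of the pathway were taken from lists written from general knowledge. Among 7 regulators, 0 passed the edgeR adjusted p and 2 had an unadjusted p under 0.05, where 9.08% of all tested rows did. HAP4 (YKL109W), the activating subunit of the CCAAT-binding complex whose level follows the carbon source, measured 571, 588 and 569 CPM in pex3 replicates 1, 2 and 3, against 384, 422 and 482 CPM in WT replicates 1, 2 and 3. The strains did not overlap, and the deletion cultures lay close together. HAP4 differed by 0.42 on the log2 scale (SE 0.09). Its adjusted p was 0.28 in edgeR and 0.0108 in DESeq2, which called 1.03% of all tested rows, so the call rests on the choice of tool. Its fold change stayed between 0.35 and 0.52 when any library was left out. Its DNA-binding partners, added after their values were seen, had log2 fold changes of -0.25 for HAP2, 0.27 for HAP3 and 0.20 for HAP5 (edgeR adjusted p from 0.562 to 0.612). HAP2 and HAP5 overlapped between strains and HAP3 did not. ROX1 (YPR065W), the repressor of hypoxic genes such as CYC7 and COX5B, measured 413, 384 and 371 CPM in the pex3 cultures, against 336, 351 and 331 CPM in the WT cultures. It did not overlap between strains, and its log2 fold change was 0.20 (SE 0.07, edgeR adjusted p 0.507).

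Among 6 paralogs and associated proteins, 0 passed the edgeR adjusted p and 2 had an unadjusted p under 0.05, where 9.08% of all tested rows did. All 6 fold changes were below 0, as were those of 2734 of the 5628 tested rows. For 4 of the 6 genes the strains overlapped, as they did for 4702 of the 5628 tested rows. SHH4 (YLR164W), a paralog of the anchor gene SDH4, measured 20.4, 23.6 and 23.8 CPM in the pex3 cultures, against 36.1, 30.9 and 36 CPM in the WT cultures. The strains did not overlap, and SHH4 differed by -0.60 on the log2 scale (SE 0.11). Its adjusted p was 0.161 in edgeR and 0.00992 in DESeq2, which called 1.03% of all tested rows. SHH3 (YMR118C), a paralog of SDH3, was low, with 2.6, 5.01 and 3.02 CPM in the pex3 cultures, against 6.26, 8.93 and 6.89 CPM in the WT cultures. SHH3 differed by -1.03 on the log2 scale (SE 0.30), and its adjusted p was 0.438 in edgeR and 0.136 in DESeq2. SDH3 and SDH4 themselves differed by 0.10 and 0.04.

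**Figure D5:**
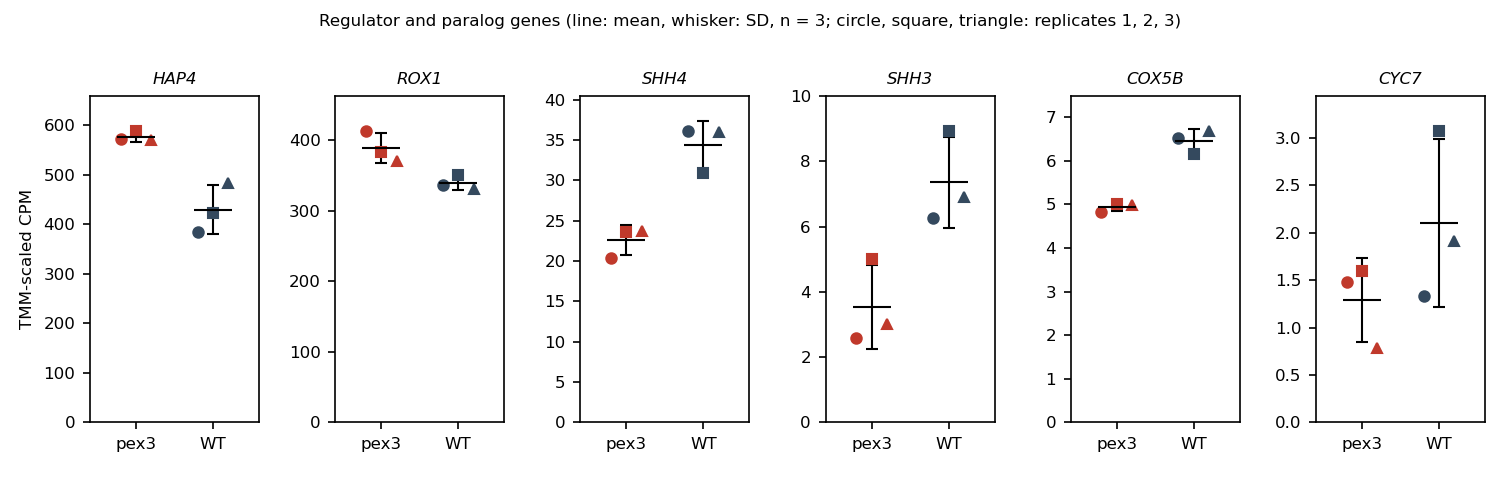
TMM-scaled CPM of 2 regulators (HAP4, ROX1), the paralogs SHH4 and SHH3 and the hypoxic isoforms COX5B and CYC7, with pex3 left of WT. Circles, squares and triangles are replicates 1, 2 and 3, lines the mean and whiskers the SD of 3 cultures. HAP4 and ROX1 lie higher in every pex3 culture, SHH4, SHH3 and COX5B lower, and CYC7 overlaps.

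In the other lists 0 genes passed the adjusted p in either test, and their counts at an unadjusted p stand against the 9.08% of all tested rows. Of 42 assembly factors, 1 had an unadjusted p under 0.05 in edgeR, TCM62, linked to the assembly of complex II, at 72.8 ± 5.69 CPM in pex3 and 60.1 ± 2.8 CPM in WT (SD, n = 3 each), which is 0.28 on the log2 scale (edgeR adjusted p 0.476). Of 11 genes of ubiquinone synthesis, 1 did so, COQ4, at 79 ± 7.72 CPM in pex3 and 93.6 ± 1.19 CPM in WT (SD, n = 3 each), which is -0.24 on the log2 scale (edgeR adjusted p 0.491). Of 7 carriers and other electron donors, 2 did so, both of them ADP/ATP carriers of the inner membrane. PET9, the main carrier of respiring cells, measured 3508, 3414 and 3432 CPM in the pex3 cultures, against 2485, 3122 and 3045 CPM in the WT cultures. PET9 differed by 0.26 in log2 units, with an SE of 0.10 and an edgeR adjusted p of 0.507. AAC1, a minor carrier, measured 168, 182 and 198 CPM in the pex3 cultures, against 200, 223 and 234 CPM in the WT cultures. AAC1 differed by -0.26 in log2 units, with an SE of 0.09 and an edgeR adjusted p of 0.497. Of the 7 subunits encoded in mitochondrial DNA, 3 were analysed, COX1, ATP6 and OLI1, at means of 7.84, 2.18 and 1.52 CPM in pex3 and 8.06, 2.72 and 1.94 CPM in WT. Mitochondrial transcripts of yeast lack the poly(A) tails by which the RNA was selected, so these levels cannot be set against those of the nuclear genes.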

How the data were processed

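Raw read counts per gene were deposited by the authors as whole numbers, 1 column per library, and the 6 columns were matched to the samples by strain and number. Per the submitters' processing notes, fastp 0.20.0, STAR, RSEM 1.3.3 and build R64 were used. RSEM estimates need not be whole, so the counts may be rounded estimates. Annotation, strand setting and filters are not given in the sources used here. The smallest row total was 62.

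Counts were tested over all genes with edgeR 4.0.16 in R 4.3.3 (quasi-likelihood test, TMM factors, strain as the only term, Benjamini-Hochberg adjustment over all rows). filterByExpr removed 3 rows. The SE is the log2 fold change divided by the square root of F. Library deviations used log2 CPM with a prior count of 2. DESeq2 1.42.0 and limma 3.58.1 served as alternatives. The edgeR step was tested on simulated data. Symbols, coding lengths and sequences come from RefSeq R64, which matched 5522 of 5631 rows. BLAST+ 2.17.0 gave similarity (blastn, E-value 1e-10). Length and GC corrections subtracted a loess curve (span 0.3) per library.

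Per-library values are given for members with an unadjusted p under 0.05, the largest fold change and the highest level of each group, and isoform pairs. From each list up to 2 genes with the smallest unadjusted p are named, and HAP4. The members and lists were chosen with earlier results of these data known.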

Additional observations from a re-analysis of the deposited data

How the results depend on the processing

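The number of members called, 0 higher and 0 lower, was the same with DESeq2 and with limma voom, with 3 other scalings (upper quartile, RLE, totals alone), without the filter or with a minimum mean of 50 counts, with length or GC correction, with the replicate block alone or with length correction, and with each library left out. Of the pathway list genes edgeR called 0, where 0.178% of all tested rows were called. DESeq2 called 2 of them, HAP4 (0.418) and SHH4 (-0.611), where 1.03% of all tested rows were called. The titles number the cultures, the sample type labels name each wild-type culture as reference for the deletion culture of the same number, and the table's columns share a prefix by number. No shared day or batch is named. Deviations of same-numbered cultures, taken across all tested rows, correlated at -0.157, 0.23 and -0.261. Library deviations also followed coding length, so this correlation cannot show whether the cultures were paired. The main fit did not pair them, and the replicate block was run as an alternative. With the replicate block alone the members' median was 0.053 and 34 of 42 were above 0. In that fit 1 row of the whole table was called, where 10 were without the block. With block and length correction together, 12 rows were called, 0 of them members. There 1 of the 42 members had an unadjusted edgeR p under 0.05, at 0.0445. In the main fit 9.08% of all tested rows passed that threshold, and the share in the fit with block and length correction is not given here. Leaving out each library moved the members' median from -0.032 (without WT replicate 1) to 0.124 (without WT replicate 3) and that of complex IV from -0.199 to 0.118. The minimum mean of 50 counts removed CYC7, which left the cytochrome c median at 0.199, the value of CYC1. COX13 turned to -0.012 with the length correction and with the block and length correction. With single libraries left out, COX13 ran from -0.048 to 0.111, COX5A from -0.03 to 0.11, CYC1 from -0.019 to 0.487, CYC7 from -0.883 to -0.327, NDE2 from -0.413 to -0.092 and ATP18 from -0.573 to 0.195. The cause of these changes was not tested, beyond the missing library or row. With 3 cultures a strain and an SE of 0.28 in members under 300 bp, moderate differences in the short subunits would not be detectable here.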
